A study of Mus musculus with 8 samples.

Results

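Histones, the proteins that package DNA, are encoded by the genes described here, whose mRNA was sequenced in bone marrow-derived macrophages of mice with and without the gene of PTIP. They were the rows of the expression table whose symbols begin with Hist, a digit and h, or with H2af, H3f or H1f, with symbols containing -ps left out, and whose mean level over the 8 samples was at least 3. The level is the deposited rlog value, a log2 expression value that a regularised transformation has pulled toward the gene's mean where reads were few. Of 87 histone rows in the table of 55226 genes, 20 met that minimum and are called members below. The minimum used the mean over all samples and no comparison. 10 members carry the Hist names of the histone gene clusters, and 10 carry the variant names H2af, H3f and H1f.

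The cells were grown from bone marrow of C57BL/6 mice for 7 days with 10 ng/ml M-CSF, a growth factor for macrophages. The 4 groups of 2 samples were PtipcKO with LPS for 6 h, PtipcKO at 0 h, PtipWT with LPS for 6 h and PtipWT at 0 h, below cKO and WT. LPS, a bacterial cell wall component, was used at 100 ng/ml. PTIP is a subunit of a histone H3K4 methyltransferase complex, and cKO marks its conditional knockout. The sources used here give neither the promoter that drives the deletion, the deleted exons nor the ages of the mice, nor whether a replicate number marks a mouse. p-values therefore measure the spread between these samples, which may be technical.

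Histone proteins come in a replication-dependent and a replacement kind. Genes of the first kind lie in clusters, have no introns and are used mainly in S phase, and their mRNAs end in a short stem-loop in place of a poly(A) tail. Replacement variants are made throughout the cell cycle from polyadenylated, mostly spliced mRNAs, and they enter chromatin outside replication. Whether the macrophages here, grown with M-CSF, were still dividing was not measured. The libraries here were made from RNA selected on oligo-dT beads, which hold poly(A) tails, so values of clustered genes describe what passed that selection and not all of their mRNA.

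The 3′ ends of the members separated these kinds only in part. The histone stem-loop, 16 letters whose arms pair around a short loop, was searched in GENCODE M21 transcripts (GRCm38), on the transcript's strand, in the first 100 bases after the stop codon. It was found in 9 of the 19 members with an annotated coding transcript, 8 clustered genes and the variant H2afx, and in 0.433% of 21022 protein-coding genes. 6 members shared the same 16 letters, Hist1h1c, Hist3h2a, Hist1h2ag, Hist1h2ao, Hist1h2ap and Hist1h2bg. The stem-loops of genes that the results below turn on follow, with the 16 letters in capitals and 5 flanking bases.
Hist1h1c (chr13:23739507-23739532, plus strand): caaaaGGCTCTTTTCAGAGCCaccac
Hist3h2a (chr11:58955167-58955192, plus strand): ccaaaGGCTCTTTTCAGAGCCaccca
Hist1h2ao (chr13:21810893-21810918, plus strand): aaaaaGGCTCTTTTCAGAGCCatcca
Hist1h4c (chr13:23698084-23698109, minus strand): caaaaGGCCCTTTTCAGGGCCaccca
Hist1h4i (chr13:22040961-22040986, minus strand): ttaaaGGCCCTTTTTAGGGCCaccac
H2afx (chr9:44335235-44335260, plus strand): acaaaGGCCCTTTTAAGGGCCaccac

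The clustered genes Hist1h2bc and Hist2h2be, which both encode histone H2B, had no such letters in that window. The annotated Hist1h2bc transcript has 742 bases after its stop codon and that of Hist2h2be 2192. The Hist1h2bc transcript is spliced, with 1156 exon bases in a gene annotated at chr13:23684199-23692908. The search followed the spliced transcript, so letters in sequence that splicing leaves out would have been missed. Several genes with a stem-loop are also annotated far beyond it, Hist3h2a for 1700 bases after the stop codon, H2afx for 884 and Hist1h1c for 880. Each of these 3 transcripts holds a poly(A) signal, AATAAA or ATTAAA, in its last 50 bases, as do Hist2h2be and Hist1h4i. The transcripts of Hist1h2bc and Hist1h4c have no signal in their last 50 bases. The annotated transcripts of Hist1h2ao, Hist1h2ag and Hist1h2ap, 3 nearly identical H2A genes, end 85, 75 and 57 bases after the stop codon, and none has a signal there. Reads of such copies can be split or lost in counting, so their separate values are uncertain. In the RefSeq table Hist1h2ao is a synonym of H2ac23, and Hist1h2ap of both H2ac23 and H2ac24. H3f3c, named as an H3.3 gene, is annotated in GENCODE as a processed pseudogene, and reads of the 2 H3.3 genes could reach it.

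H3f3b had the highest level of all members. To compare genes, levels are given per length, as the mean rlog over the 8 samples minus the log2 of the exon length in kb. That length joins the exons of all annotated transcripts of a gene. For H2afy it was 6809 bases, while its coding transcripts have 2046 and 1933, so the order of genes depends in part on the annotation. On this scale H3f3b stood at 13.30, H2afz at 10.24, H3f3a at 8.81, Hist1h2bc at 8.52 and H2afj at 8.18. H3f3a and H3f3b encode the same replacement histone H3.3, and H2afz encodes the variant H2A.Z. In the middle were H2afx (6.85), H2afv (6.53), H2afy (6.48), H1f0 (6.40), Hist1h1c (5.84), Hist3h2a (5.72) and Hist1h2ao (5.06). Hist1h2bg (4.50), H3f3c (4.39), Hist1h2ap (4.19), Hist1h2ag (4.07), Hist1h4i (3.86), Hist1h4c (3.65), H2afy2 (2.64) and Hist2h2be (2.39) were lowest. The 3 highest clustered genes, Hist1h2bc, Hist1h1c and Hist3h2a, are also among those annotated well beyond a stem-loop or without one in the searched window. But the low genes Hist2h2be, Hist1h4c and Hist1h4i are annotated in the same way, the H4 genes for 503 and 376 bases after the stop codon.

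**Figure D1:**
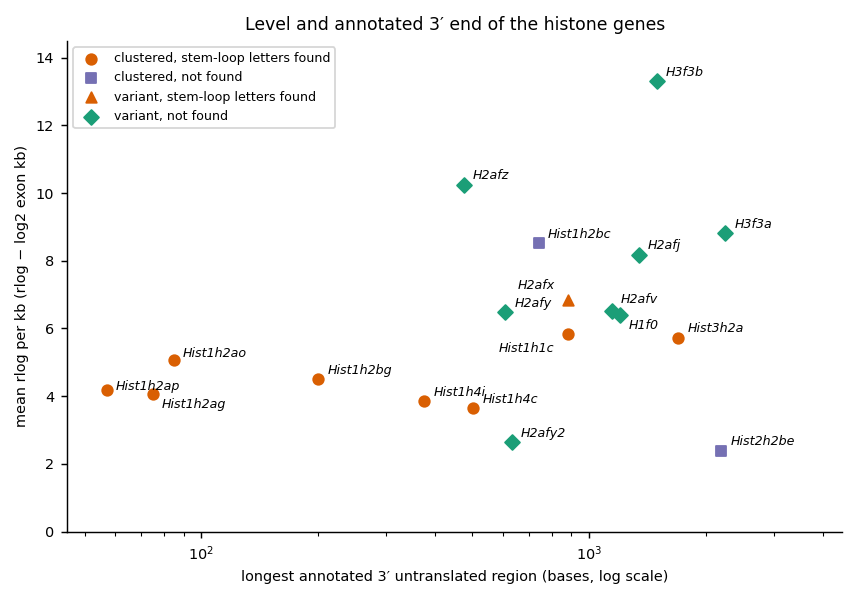
Mean level per length (rlog minus log2 of exon kb, linear axis) against the longest annotated 3′ untranslated region (bases, log axis) for the 19 members with an annotated coding transcript; colour and shape give the naming class and whether the stem-loop letters were found. Hist1h2bc, without the letters, lies at 8.52, and the short transcripts Hist1h2ao, Hist1h2ag and Hist1h2ap lie between 4.07 and 5.06.

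The filter on low values kept few clustered genes. Of 69 clustered rows 10 passed: 4 of 20 for H2A, 3 of 18 for H2B, 2 of 13 for H4, 1 of 6 for H1 and 0 of 12 for H3. Of 18 variant rows 10 passed, 6 of 10 for H2A, 3 of 4 for H3 and 1 of 4 for H1. Among the 67 rows below the minimum, 11 were listed at 0 in every sample. Just inside the minimum were Hist1h2ag, with a mean rlog of 3.03, and H3f3c, with 3.10. Just outside it were the H4 genes Hist1h4d (2.74) and Hist4h4 (2.57).

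The targeted gene Paxip1 was low in every library labelled cKO, at rlog 2.54 and 2.63 with LPS and 2.54 and 2.48 at 0 h, against 3.82 and 4.08 with LPS and 4.50 and 4.50 at 0 h in WT. The correlation across genes between the 2 libraries of a group was 0.987 to 0.992, and genes are not independent replicates. All 8 macrophage markers passed the filter. Their mean rlog was 13.02 in both cKO LPS libraries, 12.37 to 12.54 in cKO at 0 h, 13.50 to 13.70 in WT with LPS and 12.87 to 12.96 in WT at 0 h, so it moved with both LPS and genotype. The 5 dendritic cell markers, 4 of them above the minimum, averaged 4.17 to 4.43 in cKO with LPS, 3.79 to 3.97 in cKO at 0 h, 4.43 to 4.999 in WT with LPS and 3.91 to 3.92 in WT at 0 h. The 8 neutrophil markers, 2 above the minimum, averaged 1.87 to 2.30 in cKO with LPS, 1.61 to 1.75 in cKO at 0 h, 1.76 to 2.46 in WT with LPS and 1.43 to 1.79 in WT at 0 h. The 5 B cell markers, with 1 above the minimum, averaged at most 0.58 in any library. None of the T cell, erythroid or stromal markers passed, and Hbb-bt was listed at 0. The 4 mast cell or basophil markers, 3 of them above the minimum, had means of 2.81 to 3.60 per library. The part of these marker differences in the results below was not tested.

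With LPS the same 6 histone members were called in both genotypes: H2afv, H2afx, Hist1h1c and Hist1h2bc fell, and H3f3b and Hist3h2a rose. H2afv and H2afx encode the variants H2A.Z.2 and H2A.X. Hist1h1c encodes the linker histone H1.2, and Hist3h2a an H2A. A call means an adjusted p under 0.05 with limma over 11543 tested genes. In cKO cells 7 of 20 members fell and 2 rose, where 17.5% of all tested genes fell and 19.6% rose. In WT cells 5 of 20 fell and 2 rose, where 19.7% of all tested genes fell and 22.5% rose. The balance of falls and rises in WT rested on single libraries: 2 fell and 3 rose without WT 0 h replicate 1, and 2 fell and 2 rose without WT LPS replicate 2. In cKO 4 fell and 1 rose without cKO 0 h replicate 1 or cKO LPS replicate 2, 5 fell and 1 rose without cKO 0 h replicate 2, and 4 fell and 0 rose without cKO LPS replicate 1. The LPS libraries lay below those at 0 h, without overlap, for 13 members in cKO and 11 in WT, and above them for 4 in each. Over all tested genes the libraries were apart in this way, below and above, for 36.9% and 35.6% in cKO and for 35.6% and 35.7% in WT. The median difference over the members was -0.36 in cKO and -0.31 in WT, against -0.02 in cKO and -0.01 in WT over all tested genes. The 6 shared calls were 66.7% of those in cKO and 85.7% of those in WT. By the authors' deposited table, 5 members were lower and 1 was higher in cKO, where 11.5% of the genes tested here were lower and 15.9% higher. For WT the authors' deposited table had 5 members lower and 3 higher, where 12.1% were lower and 16.1% higher. In bulk samples fewer cells of a type and less RNA per cell cannot be told apart.

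**Figure D2:**
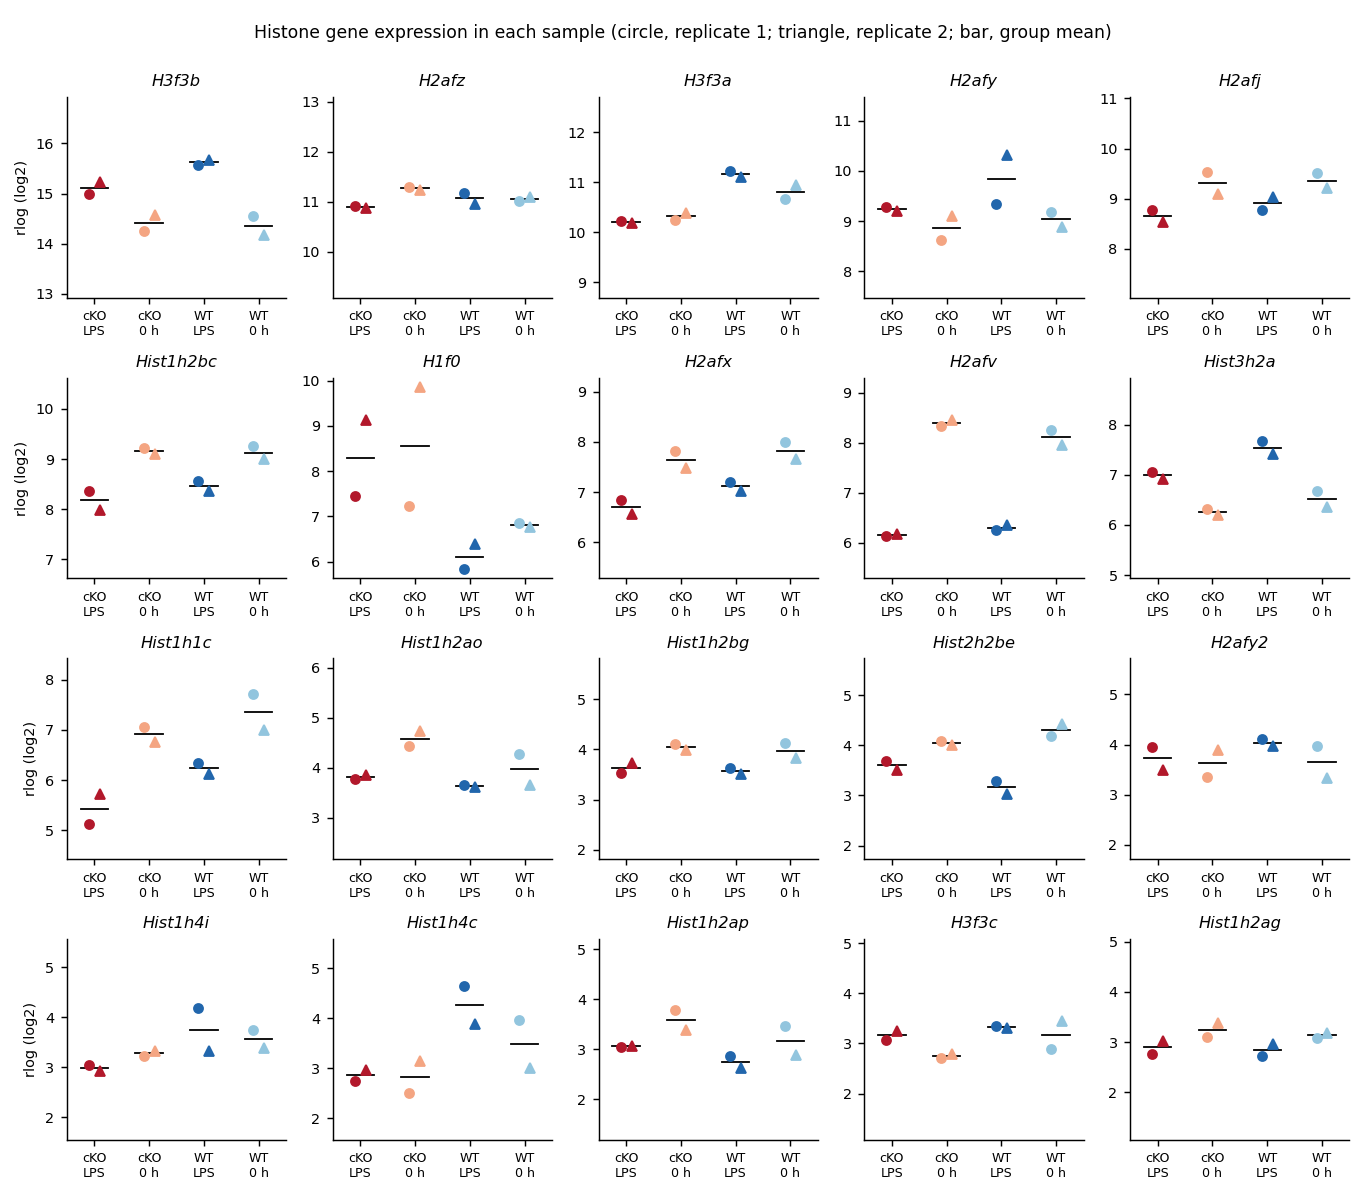
rlog (log2) of each member in each library, in the order cKO with LPS, cKO at 0 h, WT with LPS and WT at 0 h; circles are replicate 1, triangles replicate 2 and bars group means of 2 samples, and each panel spans at least 4 log2 units. H2afv drops to between 6.14 and 6.36 in the LPS libraries, and H1f0 reaches 9.13 and 9.86 in cKO replicate 2.

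H2afv showed the most marked change in rlog. Its rlog was 6.14 and 6.18 in cKO with LPS, against 8.32 and 8.44 in cKO at 0 h. In WT it was 6.26 and 6.36 with LPS, against 8.26 and 7.95 at 0 h. All 4 LPS libraries lay far below the lowest library at 0 h. The difference was -2.22 in cKO (SE 0.16, adjusted p = 3.3e-05) and -1.80 in WT (SE 0.16, adjusted p = 5.9e-05). H2afz, its close relative for H2A.Z, differed less. H2afz had rlog 10.91 and 10.88 in cKO with LPS, against 11.30 and 11.24 in cKO at 0 h, while WT had 11.18 and 10.96 with LPS, against 11.03 and 11.10 at 0 h. The cKO groups did not overlap and the WT groups did. H2afz fell by 0.37 in cKO (SE 0.12, adjusted p = 0.0408), a call that ended with no filter on low values (adjusted p = 0.0586), with no variance trend (adjusted p = 0.0715), and without any of the 4 cKO libraries or either WT 0 h library (adjusted p = 0.0521 to 0.178). In WT the difference was 0.01 (adjusted p = 0.967). It turned to -0.53 with quantile normalization (adjusted p = 0.00676), where all libraries are given 1 distribution of values.

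H2afx, whose protein is phosphorylated around DNA breaks, was at 6.84 and 6.56 in cKO with LPS, against 7.81 and 7.47 in cKO at 0 h. In WT it was at 7.20 and 7.03 with LPS, against 7.9998 and 7.65 at 0 h. The groups were apart in each genotype. Its difference was -0.94 in cKO (SE 0.19, adjusted p = 0.0055) and -0.71 in WT (SE 0.19, adjusted p = 0.017). The WT call ended without WT 0 h replicate 1 (adjusted p = 0.113) and without WT LPS replicate 2 (adjusted p = 0.0754). H2afj, which encodes the variant H2A.J, had 8.77 and 8.53 in cKO with LPS, against 9.52 and 9.10 in cKO at 0 h, while WT had 8.77 and 9.04 with LPS, against 9.51 and 9.21 at 0 h. The groups did not overlap in either genotype. It fell by 0.66 in cKO (SE 0.19, adjusted p = 0.0244), and its difference in WT was -0.45 (adjusted p = 0.0847), or -0.64 with quantile normalization (adjusted p = 0.0355). The cKO call ended without cKO 0 h replicate 1 (adjusted p = 0.145), cKO LPS replicate 1 (adjusted p = 0.0521) or cKO LPS replicate 2 (adjusted p = 0.153).

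Of the H3.3 genes, H3f3b rose and H3f3a did not pass the test. H3f3b had rlog 14.99 and 15.22 in cKO with LPS, against 14.26 and 14.56 in cKO at 0 h, while WT had 15.56 and 15.68 with LPS, against 14.54 and 14.17 at 0 h. All 4 LPS libraries lay above all 4 at 0 h. It rose by 0.70 in cKO (SE 0.20, adjusted p = 0.0282) and by 1.26 in WT (SE 0.20, adjusted p = 0.00145). With quantile normalization its difference was 0.34 in cKO (adjusted p = 0.224) and 0.54 in WT (adjusted p = 0.0628). The cKO call also ended without cKO 0 h replicate 1 (adjusted p = 0.152), cKO LPS replicate 1 (adjusted p = 0.0728) or cKO LPS replicate 2 (adjusted p = 0.179). H3f3a differed by -0.12 in cKO (adjusted p = 0.51) and by 0.35 in WT (adjusted p = 0.0691), where the sign turned with quantile normalization (-0.18). It passed in cKO with quantile normalization (-0.48, adjusted p = 0.0263) and in WT without WT 0 h replicate 2 (0.49, adjusted p = 0.0384). H3f3c differed by 0.42 in cKO (adjusted p = 0.173) and 0.17 in WT (adjusted p = 0.58).

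The macroH2A genes H2afy and H2afy2, whose proteins carry a large extra domain and are linked to silent chromatin, did not pass. H2afy had 9.29 and 9.203 in cKO with LPS, against 8.63 and 9.09 in cKO at 0 h, while WT had 9.35 and 10.31 with LPS, against 9.19 and 8.88 at 0 h. WT LPS replicate 2 stood about 1 log2 unit above every other library. Its difference was 0.38 in cKO (adjusted p = 0.343) and 0.79 in WT (adjusted p = 0.058), and without WT LPS replicate 1 the WT value was 1.28 (adjusted p = 0.00394). The authors' deposited table called it higher in WT (log2 fold change 0.93, adjusted p = 0.0371). H2afy2 differed by 0.10 in cKO (adjusted p = 0.82) and 0.39 in WT (adjusted p = 0.313). H1f0, the gene of the linker histone H1.0, differed by -0.26 in cKO (SE 0.78) and -0.69 in WT (SE 0.78), without passing (adjusted p = 0.824 in cKO and 0.51 in WT). Its libraries overlapped in cKO and not in WT, and the SE is shared with the widely spread cKO libraries.

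Among clustered genes, those called were mostly the ones with long annotated transcripts. Hist1h1c had rlog 5.13 and 5.73 in cKO with LPS, against 7.06 and 6.76 in cKO at 0 h, while WT had 6.34 and 6.12 with LPS, against 7.72 and 7.00 at 0 h. Its difference was -1.48 in cKO (SE 0.29, adjusted p = 0.00426) and -1.13 in WT (SE 0.29, adjusted p = 0.013). The WT call ended without WT 0 h replicate 1 (adjusted p = 0.0902) or WT LPS replicate 2 (adjusted p = 0.0617). Hist1h2bc had 8.37 and 7.99 in cKO with LPS, against 9.21 and 9.10 in cKO at 0 h, while WT had 8.57 and 8.36 with LPS, against 9.26 and 9.001 at 0 h. Its difference was -0.98 in cKO (SE 0.17, adjusted p = 0.0024) and -0.67 in WT (SE 0.17, adjusted p = 0.0129). Its WT call ended without the same WT libraries, 0 h replicate 1 (adjusted p = 0.0851) or LPS replicate 2 (adjusted p = 0.0648). For both genes each LPS library was below each 0 h library of its genotype.

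Hist2h2be had rlog 3.69 and 3.51 in cKO with LPS, against 4.09 and 4.01 in cKO at 0 h, while WT had 3.28 and 3.03 with LPS, against 4.18 and 4.43 at 0 h. The groups were apart in both genotypes. It fell by 1.14 in WT (SE 0.19, adjusted p = 0.0019), while its difference in cKO was -0.45 (SE 0.19, adjusted p = 0.103). In the authors' deposited table its log2 fold change in WT was -2.77 (adjusted p = 0.0273), below the -2.19 of H2afv. In cKO that table had -0.92 for Hist2h2be (adjusted p = 0.534) and -2.65 for H2afv. Hist3h2a moved the other way. It had 7.06 and 6.92 in cKO with LPS, against 6.31 and 6.19 in cKO at 0 h, while WT had 7.67 and 7.41 with LPS, against 6.68 and 6.37 at 0 h. It rose by 0.74 in cKO (SE 0.18, adjusted p = 0.0117) and by 1.02 in WT (SE 0.18, adjusted p = 0.00206). The cKO call ended without cKO 0 h replicate 2 (adjusted p = 0.0589) or cKO LPS replicate 1 (adjusted p = 0.0746).

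Hist1h2ao, a low clustered H2A gene on chromosome 13, had 3.78 and 3.85 in cKO with LPS, against 4.43 and 4.74 in cKO at 0 h, while WT had 3.66 and 3.62 with LPS, against 4.27 and 3.67 at 0 h. It fell by 0.77 in cKO (SE 0.24, adjusted p = 0.0338), a call that ended without any 1 of the 4 cKO libraries (adjusted p = 0.0541 to 0.164). In WT the difference was -0.33 (adjusted p = 0.301). The other H2A and H2B genes had values below 0 in both genotypes without passing. These differences were -0.52 in cKO and -0.43 in WT for Hist1h2ap, -0.35 in cKO and -0.29 in WT for Hist1h2ag, and -0.41 in both for Hist1h2bg. The H4 genes differed by 0.04 in cKO and 0.78 in WT (Hist1h4c) and by -0.30 in cKO and 0.19 in WT (Hist1h4i), also without passing. Hist1h4c turned to -0.08 in cKO with quantile normalization, and in WT it passed without WT 0 h replicate 1 (1.25, adjusted p = 0.0448). WT 0 h replicate 1 and WT LPS replicate 1 were the highest libraries for both H4 genes.

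**Figure D3:**
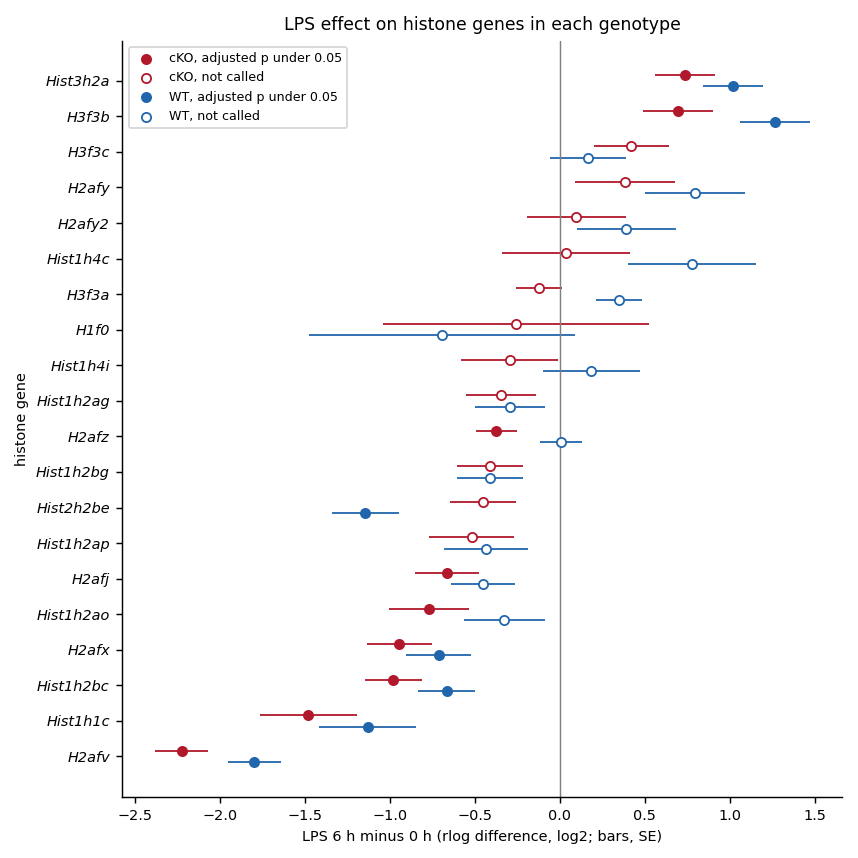
Difference between LPS and 0 h (rlog, log2) for each member in cKO (red) and WT (blue), with bars of 1 SE from limma; filled points have an adjusted p under 0.05. H2afv lies lowest, at -2.22 in cKO and -1.80 in WT, and Hist3h2a and H3f3b are filled to the right of 0.

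The regions upstream of the genes that rose were compared, since H3f3b and Hist3h2a moved against most members. The octamer ATTTGCAT, known from H2B promoters, was searched in both strands of the 250 bases before each RefSeq gene start (GRCm38.p6), along with the CCAAT box CCAAT, the TATA box motif TATAAA, the E2F-type motif TTTGGCGC and the GC box motif GGCGGG. Of the members 16 had such an entry. The octamer lay upstream of 3 of them, H3f3b, Hist3h2a and Hist1h2bg, and upstream of 1.6% of 32851 starts in the table. The other strand reads ATGCAAAT. The sites follow in the gene's direction, with the octamer in capitals.
H3f3b (chr11:116024561-116024588, minus strand): tcgttggtgtATGCAAATcagggttctg
Hist3h2a (chr11:58954556-58954583, plus strand): ggtaaggcatATGCAAATtaggaaggct
Hist1h2bg (chr13:23571331-23571358, plus strand): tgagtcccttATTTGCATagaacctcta

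The octamer began 74 bases before the RefSeq start of H3f3b, 119 before that of Hist3h2a and 59 before that of Hist1h2bg. The last of these genes was not called in either genotype, so the letters were found beside members with and without a call. CCAAT was found upstream of 11 of the 16 members, against 33.8% of all starts, TATAAA upstream of 3, against 12.4%, and GGCGGG upstream of 10, against 32.5%. TTTGGCGC was found upstream of 0 of the 16 and of 0.417% of all starts. The whole window of H2afv, which fell most in rlog, has CCAAT or its complement ATTGG at 4 places and none of the other motifs. That of Hist3h2a has 2 such places beside its octamer. Both windows are printed with these motifs in capitals. A match is a run of letters and not a measured binding site.
H2afv (chr11:6444444-6444693, minus strand): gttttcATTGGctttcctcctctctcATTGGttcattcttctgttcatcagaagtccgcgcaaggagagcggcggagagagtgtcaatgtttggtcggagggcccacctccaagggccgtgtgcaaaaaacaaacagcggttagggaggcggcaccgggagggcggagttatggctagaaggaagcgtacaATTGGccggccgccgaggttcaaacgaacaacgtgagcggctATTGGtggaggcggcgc
Hist3h2a (chr11:58954435-58954684, plus strand): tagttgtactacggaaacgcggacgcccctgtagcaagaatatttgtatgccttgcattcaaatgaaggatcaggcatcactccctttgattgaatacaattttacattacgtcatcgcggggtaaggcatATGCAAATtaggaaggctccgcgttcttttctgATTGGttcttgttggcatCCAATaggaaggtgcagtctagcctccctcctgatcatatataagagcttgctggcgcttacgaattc

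Genes that act with histones were described from 3 lists. Of 43 S phase genes, 24 fell and 6 rose with LPS in cKO, and 20 fell and 6 rose in WT, with medians of -0.76 in cKO and -0.55 in WT. Over all tested genes 17.5% fell and 19.6% rose in cKO, and 19.7% fell and 22.5% rose in WT. E2f2, a transcription factor of the cell cycle, was at 4.42 and 4.74 in cKO with LPS, against 7.31 and 7.19 in cKO at 0 h, while WT had 4.25 and 4.11 with LPS, against 6.82 and 6.87 at 0 h. Its difference was -2.67 in cKO (SE 0.18, adjusted p = 2.8e-05) and -2.66 in WT (SE 0.18, adjusted p = 2.1e-05). Mki67, the proliferation marker, rose by 1.48 in cKO and 2.04 in WT. The cyclin E gene Ccne1 rose by 1.98 in WT, and Rfc3, also on the list, rose by 1.25 in cKO. More genes of the S phase list, which includes the proliferation marker, thus fell than rose with LPS. They fell in the same libraries as the clustered genes that fell, and the list's part in them was not tested.

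Of 33 tested genes of histone chaperones and deposition, 7 rose and 5 fell with LPS in cKO, where 19.6% of all tested genes rose and 17.5% fell. In WT 8 rose and 4 fell, where 22.5% of all tested genes rose and 19.7% fell. Daxx, which helps to deposit H3.3, rose by 2.35 in cKO (SE 0.19) and 2.45 in WT (SE 0.19). Hat1, the acetyltransferase of new H4, rose by 1.25 in cKO (SE 0.13) and 2.42 in WT (SE 0.13). Asf1b, a chaperone of H3 and H4 in dividing cells, fell, with differences of -1.51 in cKO and -1.501 in WT. The list's medians were -0.01 in cKO and 0.05 in WT.

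Of 24 tested genes that transcribe the clusters or process histone mRNA, 4 rose and 2 fell with LPS in cKO, and 7 rose and 3 fell in WT, against the same shares of 19.6% and 17.5% of all tested genes in cKO and 22.5% and 19.7% in WT. Hinfp, a transcription factor of H4 genes, was at 7.78 and 7.84 in cKO with LPS, against 6.56 and 6.61 in cKO at 0 h, while WT had 8.08 and 7.99 with LPS, against 6.50 and 6.69 at 0 h. It rose by 1.23 in cKO (SE 0.14, adjusted p = 0.00031) and by 1.44 in WT (SE 0.14, adjusted p = 0.0001). Ncbp2, a cap-binding subunit, fell, with differences of -0.81 in cKO and -0.92 in WT.

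Between genotypes H3f3a passed the test and was lower in cKO. After LPS its rlog was 10.22 and 10.18 in cKO, against 11.22 and 11.10 in WT. At 0 h it was 10.26 and 10.39 in cKO, against 10.67 and 10.95 in WT. Every cKO library lay below every WT library. After LPS H3f3a was lower in cKO than in WT by 0.96 (SE 0.13, adjusted p = 0.0156), 1 of 20 members called, where 2.46% of tested genes were lower and 1.51% higher. The call ended without cKO LPS replicate 1 (adjusted p = 0.105), cKO LPS replicate 2 (adjusted p = 0.156) or WT LPS replicate 1 (adjusted p = 0.0765), and the value then ranged from -0.98 to -0.90. At 0 h the difference was -0.49 (SE 0.13, adjusted p = 0.248). Averaged over both times it was -0.72 (SE 0.10, adjusted p = 0.0069), again 1 of 20 members, where 4.14% of tested genes were lower and 2.88% higher; without cKO LPS replicate 2 the adjusted p was 0.0506. In the authors' deposited table the log2 fold change was -0.996 after LPS (adjusted p = 0.000172) and -0.53 at 0 h (adjusted p = 0.426). The comparisons at 0 h and after LPS share no library, and the average uses both.

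At 0 h limma called 0 of 20 members, where it called 0.251% of tested genes. The unadjusted p was under 0.05 for 2 members and for 1256 of 11543 tested genes. No member was called in the authors' deposited table at 0 h, a count of 0 where 1.52% of the genes tested here were.

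H1f0 was high in the cKO libraries and most of all in those numbered 2. After LPS its rlog was 7.45 and 9.13 in cKO, against 5.84 and 6.39 in WT. At 0 h it was 7.23 and 9.86 in cKO, against 6.85 and 6.76 in WT. The groups did not overlap at either time, but the SD was 1.19 after LPS and 1.86 at 0 h in cKO, against 0.39 after LPS and 0.064 at 0 h in WT (n = 2 each). By number, cKO exceeded WT by 1.61 (replicate 1) and 2.74 (replicate 2) after LPS and by 0.38 and 3.10 at 0 h. The difference was 2.17 after LPS (SE 0.78, adjusted p = 0.152), 1.74 at 0 h (SE 0.78, adjusted p = 0.47) and 1.96 averaged over times (SE 0.55, adjusted p = 0.0741). Leaving out cKO 0 h replicate 1 or 2 kept the value after LPS at 2.17, since neither is an LPS library. Averaged over times the value was 2.61 without cKO 0 h replicate 1. H1f0 passed in these refits, where the wide spread of the cKO 0 h pair no longer entered the shared error. The authors' deposited table called it higher after LPS (log2 fold change 2.87, adjusted p = 0.0417). In all it had 1 member higher and 2 lower after LPS, where 2.56% of the genes tested here were higher and 3.02% lower. Its adjusted p did not always follow its unadjusted p. After LPS Hist1h4i had the smaller unadjusted p there (0.0675, against 0.0706 for Hist3h2a) but the larger adjusted p. Such low rows may not have been open to a call, so their missing calls are not negative results. The targeted gene Paxip1 was not called there after LPS either (log2 fold change -4.04, unadjusted p = 0.004). H1.0 is known as the linker histone that builds up in cells that have stopped dividing.

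The H4 gene Hist1h4c had the lowest difference after LPS. Its rlog was 2.76 and 2.97 in cKO with LPS, against 4.64 and 3.89 in WT with LPS, and 2.51 and 3.14 in cKO at 0 h, against 3.97 and 3.01 in WT at 0 h. The LPS groups were apart and the 0 h groups overlapped. The difference was -1.40 after LPS (SE 0.38, adjusted p = 0.0762), -0.67 at 0 h (adjusted p = 0.583) and -1.03 averaged over times (SE 0.27, adjusted p = 0.0558). After LPS it passed when only the 2 LPS groups were fitted (adjusted p = 0.0492). The averaged value passed with samples centred on their medians (adjusted p = 0.0481). Dropping WT replicate 2 moved the average to -1.27 (its 0 h library dropped) or -1.22 (its LPS library dropped). Each of these refits leaves the higher WT replicate 1 alone in its group. Between libraries numbered 1, cKO minus WT was -1.89 after LPS and -1.46 at 0 h. Between those numbered 2 it was -0.92 after LPS and 0.13 at 0 h, so the averaged value leaned on replicate 1. The authors' deposited table called Hist1h4c lower after LPS (log2 fold change -2.96, adjusted p = 0.0313). The related gene Hist1h4i differed by -0.77 after LPS (adjusted p = 0.164). Its averaged value of -0.53 passed, at -0.75, without WT LPS replicate 2. That refit leaves WT LPS replicate 1 alone in its group, at rlog 4.18 against 3.32 for replicate 2.

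After LPS the cKO libraries lay below the WT libraries, without overlap, for 13 of 20 members and above them for 4, where this held for 29.7% and 23.3% of all tested genes. Of the 10 variant genes 9 were below, H1f0 being the exception. The median difference over the members was -0.27, against -0.03 over all tested genes. Uncalled members with values below 0 included Hist1h1c (-0.80, adjusted p = 0.147), Hist3h2a (-0.55, adjusted p = 0.114), H3f3b (-0.51, adjusted p = 0.192) and H2afx (-0.41, adjusted p = 0.259). With quantile normalization the value of H2afz was 0.04, against -0.18 without it, and 13 members in place of 14 had values below 0, as 54% of all tested genes did before it. The averaged value of H3f3b of -0.23 also turned sign, to 0.08 with quantile normalization. The averaged value of Hist3h2a was -0.41 (adjusted p = 0.0897). The macrophage markers were lower in cKO in the same libraries, as given above, and their part in these values was not tested.

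**Figure D4:**
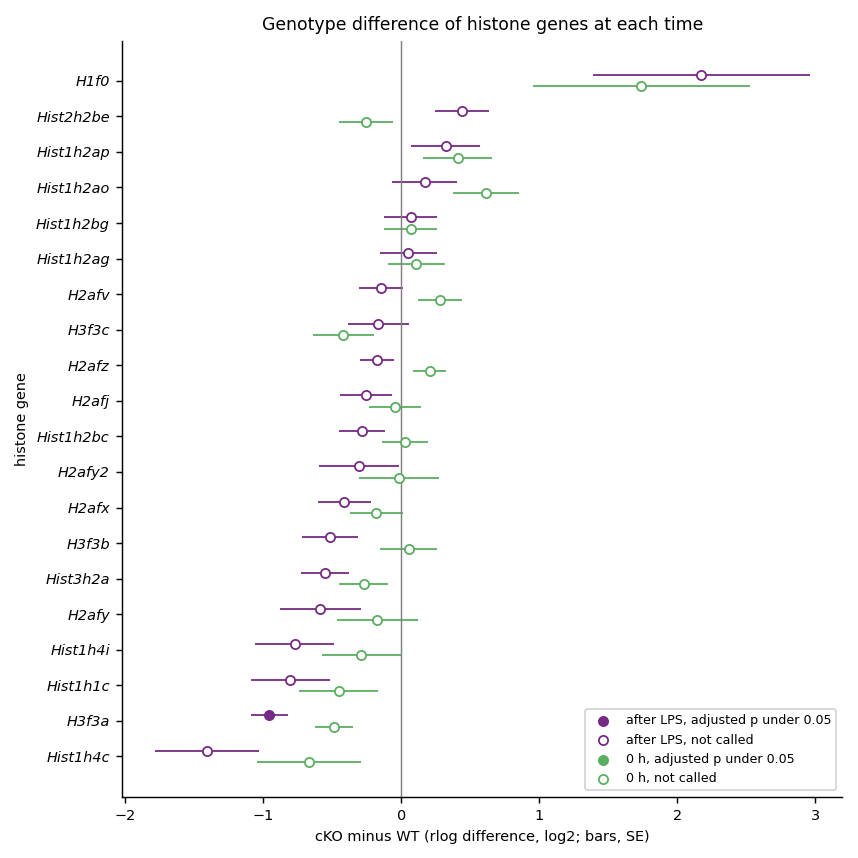
Difference between cKO and WT (rlog, log2) for each member after LPS (purple) and at 0 h (green), with bars of 1 SE from limma; filled points have an adjusted p under 0.05. H3f3a after LPS, at -0.96, is the one filled point, and H1f0 has the widest bars, with an SE of 0.78 at each time.

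After LPS 4 of 33 chaperone and deposition genes were lower in cKO and 0 higher, where 2.46% of all tested genes were lower and 1.51% higher. Hat1 was at 9.31 and 9.30 in cKO with LPS, against 10.67 and 10.48 in WT with LPS, and it fell by 1.27 (SE 0.13, adjusted p = 0.00814). Chaf1b, a subunit of the CAF-1 complex that loads histones at replication forks, was lower in cKO by 0.84 (SE 0.16, adjusted p = 0.0283). Slbp, which binds the stem-loop printed above, was at 9.64 and 9.61 in cKO with LPS, against 10.24 and 10.10 in WT with LPS. Slbp was thus lower in cKO than in WT by 0.54 (SE 0.12, adjusted p = 0.0482), the 1 call of 24 in its list. Of 43 S phase genes 3 were lower, among them Mki67 (-1.23, adjusted p = 0.0365) and the cyclin E gene Ccne1 (-0.81, adjusted p = 0.0482). At 0 h limma called 0 genes in each of the 3 lists. The unadjusted p was under 0.05 for 2 of 24 processing, 3 of 33 chaperone and 3 of 43 S phase genes. Over all tested genes it was so for 1256 of 11543. Averaged over times 2 processing genes were higher, Celf1 (0.52) and Cdk9 (0.52), as was the chaperone list's Ruvbl2 (0.44), while 3 chaperone genes and 1 S phase gene, Mki67, were lower.

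The size of the LPS response did not differ detectably between genotypes for any member. For this interaction limma called 0 of 20 members and 0% of tested genes. An unadjusted p under 0.05 was found for 751 of 11543 tested genes and for 2 members. These were H3f3a (-0.47, SE 0.19, adjusted p = 0.747) and Hist2h2be (0.69, SE 0.28, adjusted p = 0.734). By replicate number the LPS difference of H3f3a was -0.03 and -0.21 in cKO, against 0.55 and 0.14 in WT. Of the members 16 had interaction values below 0, with a median of -0.30, against 51.9% of all tested genes and a median of -0.02. No interaction was called among the genes of the 3 lists. The unadjusted p was under 0.05 for 1 of 24 processing, 5 of 33 chaperone and 5 of 43 S phase genes, beside 751 of 11543 tested genes.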

How the data were processed

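RNA was taken up in Trizol and enriched with oligo-dT beads before random-primed copying and 15 PCR cycles, per the labels' protocols. Tools named in the submitters' processing notes, with no roles, are CASAVA, featureCounts, DESeq2 and HISAT2 2.1.0, with build GRCm38. Annotation, strand setting and the handling of multiply matching reads: not given in the sources used here. The authors deposited log2 values (rlog) for 8 samples and, per the file headers, their own log2 fold changes with raw and adjusted p-values for 4 comparisons. No counts were used, so depth is unknown. The 11543 genes whose mean rlog reached 3 were fitted with 4 group means in limma 3.58.1 (R 4.3.3; eBayes with a variance trend; 4 residual and 4.4 prior degrees of freedom). Adjusted p-values are Benjamini-Hochberg over these genes, and 17 alternatives were tried.

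The members, the lists and the tests were chosen with earlier results of these data known. All 20 members were described, and pathway genes were named by size, up to 2 rises and 2 falls per list and comparison among those called without overlap. Positions and transcripts are from GENCODE M21 (GRCm38) and upstream sequences from RefSeq (GRCm38.p6), where 16 of 20 members matched.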

Additional observations from a re-analysis of the deposited data

How the results depend on the processing

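The 18 member calls kept their direction in all 301 refits under 17 alternatives, and 269 kept the call. Only median centring and quantile normalization could have turned a direction. The other alternatives left the difference unchanged or dropped a library from groups that did not overlap, so their direction was fixed in advance. Most of the 32 losses came from leaving out a library, which leaves 1 sample in a group that is assumed to vary like the others. Counts of called members then ranged from 4 to 9 for LPS in cKO, 4 to 8 for LPS in WT, 0 to 2 for cKO against WT after LPS and 0 to 3 averaged over times. The count after LPS was 2 with only the 2 groups compared, and the averaged count was 2 with samples centred on their medians. With the replicate number as a block the averaged count was 3, with H1f0 (adjusted p = 0.0185) and Hist3h2a (0.0477) gained, and H2afy passed for LPS in WT (0.0453). Deviations of same-numbered samples correlated at 0.31 within cKO and 0.22 within WT, and at -0.04 to 0.20 between genotypes, and with 2 numbers and no label that ties them to mice the pairing was left unsettled. With a replicate block within genotype the counts were 9 for LPS in cKO, 10 in WT, where H2afj (adjusted p = 0.0492), H2afy (0.0477) and Hist1h4c (0.0192) were gained, and 0 for the interaction. H2afz in WT reversed to -0.53 with quantile normalization; the cause was not tested. A minimum mean rlog of 5 left 11 members.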

Other observations

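The 3 histone genes next below the minimum level encode an H1 and H4. Hist1h1e, the gene of linker histone H1.4, had rlog 2.04 and 2.22 in cKO with LPS, against 2.48 and 2.55 in cKO at 0 h, while WT had 2.42 and 2.29 with LPS, against 2.81 and 2.58 at 0 h. Hist4h4, an H4 gene, had 1.99 and 2.53 in cKO with LPS, against 3.89 and 2.87 in WT with LPS, and 2.13 and 2.08 in cKO at 0 h, against 2.96 and 2.07 in WT at 0 h. Hist1h4d, another H4 gene, had 2.71 and 2.61 in cKO with LPS, against 3.49 and 2.74 in WT with LPS, and 2.14 and 2.78 in cKO at 0 h, against 2.97 and 2.50 in WT at 0 h. For both H4 genes WT LPS replicate 1 was the highest library. These rows were not tested, and rlog values at this level are pulled strongly toward their mean.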
